A study of Mus musculus with 6 samples.

Results

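The genes described here are 10 heat shock chaperone genes of the cytosol and nucleus, taken by symbol from the 24054 genes of the deposited count table: the HSP40 genes Dnajb1 and Dnaja1, the HSP70 genes Hspa8, Hspa1a and Hspa1b, the HSP90 genes Hsp90aa1 and Hsp90ab1, the exchange factor genes Hsph1 and Bag2, and Hsf1. All 10 have a row, and 9 passed the filter on low counts. They were read in 6 total RNA libraries of TIBx, a mouse line whose cell type is labelled as liver BNL 1ME A.7R.1: 3 of genotype WT, the parental line, and 3 of genotype DNAJ-PKAc, labelled as an FLC (fibrolamellar carcinoma) line. Both lines were kept in the same DMEM medium with serum and L-glutamine, and no treatment, time or animal is named. Each genotype is a single line, so the fusion and any other difference between the lines cannot be told apart, and how the fusion was introduced, or whether the line is 1 clone, is stated in no source used here. Nothing says that replicates A, B and C were grown separately, so the p-values rest on a spread among libraries that may be only technical.

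HSP70 proteins hold unfolded stretches of other proteins in a cycle of ATP binding and hydrolysis. J-domain proteins (HSP40) bring clients and speed hydrolysis through a His-Pro-Asp motif in the J domain, and exchange factors such as the HSP110 protein of Hsph1 and the BAG proteins release ADP and the client. Clients such as kinases and steroid receptors pass on to HSP90, and the transcription factor HSF1, which binds inverted GAA repeats called heat shock elements, induces many of these genes under stress. In fibrolamellar carcinoma the J domain encoded by the first exon of DNAJB1 is joined to the catalytic subunit of protein kinase A, encoded by Prkaca, and the J domain of the fusion can bind HSP70.

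The coding part of the first exon of Dnajb1 is shown because it is the mouse form of the stretch that DNAJB1 gives to the fusion. It spans 211 bases at chr8:83608332-83608542 (GRCm38, plus strand, GENCODE M21), and the codons of the His-Pro-Asp motif, whose first residue is number 32, are in capitals. The same motif in Dnaja1 starts at residue 34. It lies in exon 2 of the transcript used, the first exon there with coding bases. The stretch around it (chr4:40723752-40723844, plus strand) is shown beside that of Dnajb1.
Dnajb1: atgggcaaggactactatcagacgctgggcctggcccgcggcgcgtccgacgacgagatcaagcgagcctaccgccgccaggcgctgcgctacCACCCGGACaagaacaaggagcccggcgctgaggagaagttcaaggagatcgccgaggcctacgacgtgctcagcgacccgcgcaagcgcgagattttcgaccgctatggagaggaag
Dnaja1: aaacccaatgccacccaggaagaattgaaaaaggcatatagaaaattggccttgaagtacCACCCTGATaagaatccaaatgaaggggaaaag
A gene-level count of Dnajb1 cannot tell reads of this exon in the intact transcript from reads of it in a fusion transcript, and the junction was not examined here.

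Upstream sequence is shown for the members with a paired heat shock element in their RefSeq promoter window (250 bases before to 50 after a start site, GRCm38.p6), with the pair in capitals. The pairs searched were GAANNTTC and TTCNNGAA, which read the same on both strands and can overlap each other. Of the 10 members 6 had a window (10 windows in all), and Hspa8, Hsp90aa1, Hsp90ab1 and Hsf1 had none. The upstream stretches of Hspa1a and Hspa1b are identical in the bases shown, at chr17:34972213-34972300 and chr17:34959295-34959382 (minus strand). The stretch of Dnaja1 lies at chr4:40722304-40722391 (plus strand) and that of Hsph1 at chr5:149636322-149636409 (minus strand).
Hspa1a and Hspa1b: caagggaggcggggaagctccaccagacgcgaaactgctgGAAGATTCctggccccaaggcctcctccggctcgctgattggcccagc
Dnaja1: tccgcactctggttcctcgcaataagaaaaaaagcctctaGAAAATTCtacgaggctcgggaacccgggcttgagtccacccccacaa
Hsph1: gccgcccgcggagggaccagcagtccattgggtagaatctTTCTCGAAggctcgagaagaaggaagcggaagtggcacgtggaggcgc
Every window of Hspa1a, Hspa1b and Hsph1 held at least 1 pair. In Dnaja1 only the window at chr4:40722218-40722517 held a pair, and its other windows, at later start sites, held none. Over the genome 15.1% of 32851 windows of 300 bases held a pair, a share per window and not per gene. Hsph1 also had 3 alternating units in a row, TTCTGGAAAGTTC, starting 16 or 37 bases into its transcript by the start site used, an arrangement found in 0.603% of windows. No pair was found in the windows of Dnajb1 or Bag2, imperfect repeats were not searched, and the CREB site TGACGTCA (in 1.79% of windows) was in none of the members' windows. These matches are letters in the sequence and not measured binding.

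Across the libraries, totals ran from 8095549 to 9969590 expected counts, and values are given as CPM, counts brought to a common library total with TMM factors, with 3 values of a line always listed in the order A, B, C. DNAJ-PKAc C stood apart from the other libraries: on the second principal component of log2 CPM, which held 26.5% of the variance, it scored -61.5 and the other 5 between 9.26 and 16.9. The cell cycle list had a median log2 difference from the WT mean of 1.86 in DNAJ-PKAc A, 1.92 in B and -1.11 in C. WT B had 2.66% of its counts on the ribosomal precursor Rn45s, against 0.912% to 1.05% elsewhere. Prkaca was at 63.6, 87.6 and 79.2 CPM for WT, against 131, 120 and 95.7 for DNAJ-PKAc. Among hepatocyte markers Alb and Hnf4a had 0 counts in all 6 libraries and the list summed to 7.51 to 8.33 CPM in WT and to 0.122 to 1.39 CPM in DNAJ-PKAc. Its only tested gene, Krt8, fell (log2 -3.09, edgeR adjusted p = 0.036), a call lost on leaving out any 1 library other than DNAJ-PKAc C. Fibroblast markers summed to 16106 to 30003 CPM, the 2 lowest sums being DNAJ-PKAc A and B and the highest DNAJ-PKAc C. These sums rest on few genes: Vim alone stood at 11556 to 14225 CPM, and Col1a2 and Col3a1 made much of the rest. Thy1 had 0 counts in all 6 libraries and Lum was at 0.244 CPM at most, so not all of these markers were present. Leukocyte and endothelial markers summed to 5.19 CPM at most in any library, with Ptprc at 0 counts in all 6.

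DNAJ-PKAc A and B lay above every WT library for 7 of the 9 tested members, all but Hsph1 and Bag2. DNAJ-PKAc C lay within or below the WT range for 7, all but Dnaja1 and Hsf1. This split of the line was made after the values were seen, and the share of all genes that follow it was not counted. The 7 are therefore not read as particular to these genes. In the fit without DNAJ-PKAc C 14.3% of all genes were called higher at an adjusted p under 0.05. That is a stricter measure than lying above every WT library, so the 2 shares cannot be compared. Over all 6 libraries 0 of the 9 were called (edgeR's quasi-likelihood test with p adjusted by Benjamini-Hochberg over 10975 genes, threshold 0.05, by which 3.51% of all genes were called). At an unadjusted p under 0.05 there were 2 higher, Dnaja1 and Hsp90aa1, and 0 lower, where 11.8% of all genes were higher and 9.72% lower. Limma-voom called 0 members, and DESeq2 called 1, Dnaja1 (adjusted p = 0.037), beside 3.17% of all genes called higher and 5.7% lower. Of the 9, 8 lay above 0, with a median log2 difference of 0.34, where 53.9% of all genes tested lay above 0 with a median of 0.05. The 8 include Dnajb1 at 0.00075, which is no difference. With RLE or upper-quartile factors, DESeq2 or limma-voom 7 lay above 0. Leaving out 1 library gave 6 (without WT C or DNAJ-PKAc A) to 9 (without DNAJ-PKAc C). Groups did not overlap for 2 of the 9 members with DNAJ-PKAc higher (15.8% of all genes) and for 0 with DNAJ-PKAc lower (13.1% of all genes).

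**Figure D1:**
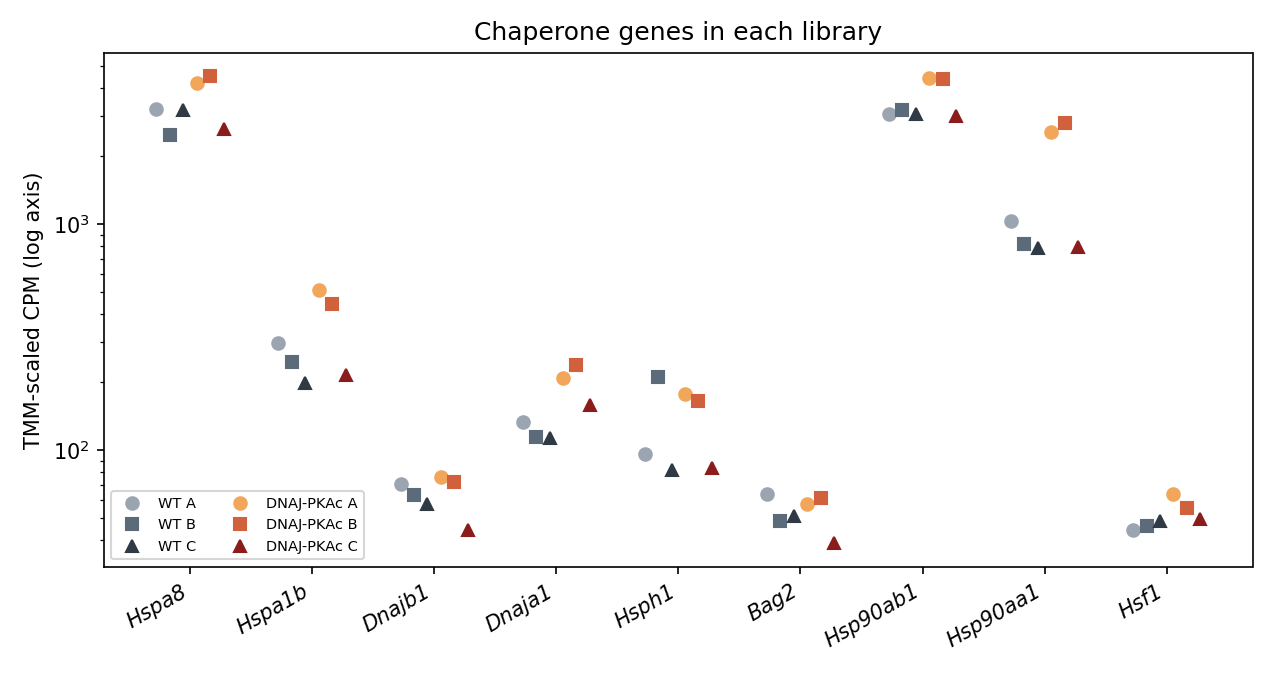
Level of each tested member in every library (TMM-scaled CPM, log axis), with grey for WT and orange to red for DNAJ-PKAc. DNAJ-PKAc C sits with the WT libraries or below them for every gene but Dnaja1 and Hsf1.

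Hspa8 encodes HSC70, the constitutive HSP70 that is abundant without stress, from chr9:40801276-40805202 (RefSeq gene positions on GRCm38.p6 here and below). It stood at 3216, 2479 and 3189 CPM for WT, against 4227, 4504 and 2622 for DNAJ-PKAc. DNAJ-PKAc A and B lay above every WT library while C lay inside the WT range, so the groups overlapped. The log2 difference was 0.35 (SE 0.25, 95% interval -0.23 to 0.93, edgeR adjusted p = 0.418). By mean CPM over the 6 libraries Hspa8 ranked 17 among the genes tested. In GENCODE transcripts 73.2% of its stretches of 50 bases also occur in another gene, most of them in Gm15459, so its count is uncertain to the extent that reads of such copies were shared.

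The stress-inducible HSP70 genes Hspa1a and Hspa1b lie on chromosome 17 (chr17:34969359-34972156 and chr17:34956429-34959238), and nearly all of their counts were assigned to Hspa1b. Hspa1a had 0 counts in 5 libraries and 1.55 expected counts in DNAJ-PKAc A, under the floor of 3 counts per library (0.301 to 0.371 CPM). No fold is given for it. Hspa1b stood at 299, 246 and 198 CPM for WT, against 513, 443 and 214 for DNAJ-PKAc. Here too DNAJ-PKAc A and B were above all WT libraries and C was within their range. The log2 difference of Hspa1b was 0.65 (SE 0.33, 95% interval -0.13 to 1.44, edgeR adjusted p = 0.294). The coding sequences of the pair are 99.48% identical, and their promoter windows differ at 4 of 300 bases. As 58.8% of the 50-base stretches of the Hspa1a transcript also occur in Hspa1b, and no source used here gives the rules for shared reads, the division of counts between them is uncertain, and their sum is the safer measure. Counting every other gene of GENCODE, Hspa1b included, 60.3% of them are shared. Summed, the pair amounted to 7.24% ± 1.70 of Hspa8 per kilobase of transcript in WT and to 8.58% ± 1.70 in DNAJ-PKAc (SD, n = 3 each), and the libraries overlapped (log2 difference 0.26, exact permutation test, 2-sided, p = 0.5; adjusted p = 0.75 over 6 ratios).

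Of the J-domain genes, Dnaja1 was higher in every DNAJ-PKAc library than in any WT library, and Dnajb1 overlapped. Dnaja1, which encodes an HSP40 partner of HSC70 with a farnesylated end (chr4:40722468-40734965), was at 134, 114 and 113 CPM for WT, against 208, 239 and 158 for DNAJ-PKAc. All 3 DNAJ-PKAc libraries were above all 3 WT libraries, also C. The fold was 1.68 (log2 0.74, SE 0.19, 95% interval 0.29 to 1.20), and it missed the threshold (edgeR adjusted p = 0.0955). Of the 50-base stretches of Dnaja1 18.7% also occur in another gene, most of them in Gm15542, and of those of Dnajb1 0.407% do. The Dnaja1 count is therefore the less certain of the pair. Dnajb1, the fusion's own J-domain gene (chr8:83608175-83612653), was at 70.9, 63.7 and 58.0 CPM for WT, against 76.0, 72.2 and 44.4 for DNAJ-PKAc. The lowest and the highest of the 6 values were both in DNAJ-PKAc. The log2 difference was 0.00 with a 95% interval of -0.54 to 0.54 (SE 0.23, edgeR adjusted p = 0.999), so a change of up to about 0.54 on the log2 scale in either direction lies within the interval, and its sign changed with the scaling (-0.068 with upper-quartile factors).

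Within a library the balance of the J-domain genes did not overlap between the lines. Dnajb1 amounted to 99.4%, 104% and 96.3% of Dnaja1 per kilobase for WT, against 68.5%, 56.7% and 52.7% for DNAJ-PKAc. No library of one line reached the other, and DNAJ-PKAc C lay with A and B in this ratio. The log2 difference was -0.76 (exact permutation test, 2-sided, p = 0.1, the smallest that 3 libraries against 3 can give; adjusted p = 0.3 over 6 ratios). A ratio within a library does not depend on the scaling between libraries. Its level rests on transcript length, here 5622 bases for the longest coding transcript of Dnaja1 and 2996 for Dnajb1, whereas the difference between the lines does not. The ratio shows unequal change and not which gene changed, and it carries the uncertainty of the Dnaja1 count. Together the J-domain pair made 3.26% ± 0.447 of the HSP70 genes (Hspa8, Hspa1a and Hspa1b) per kilobase in WT and 3.38% ± 0.248 in DNAJ-PKAc (SD, n = 3 each), a log2 difference of 0.06 (exact permutation test, p = 0.9; adjusted p = 1) that was -0.047 without WT C and -0.0034 without DNAJ-PKAc C.

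**Figure D2:**
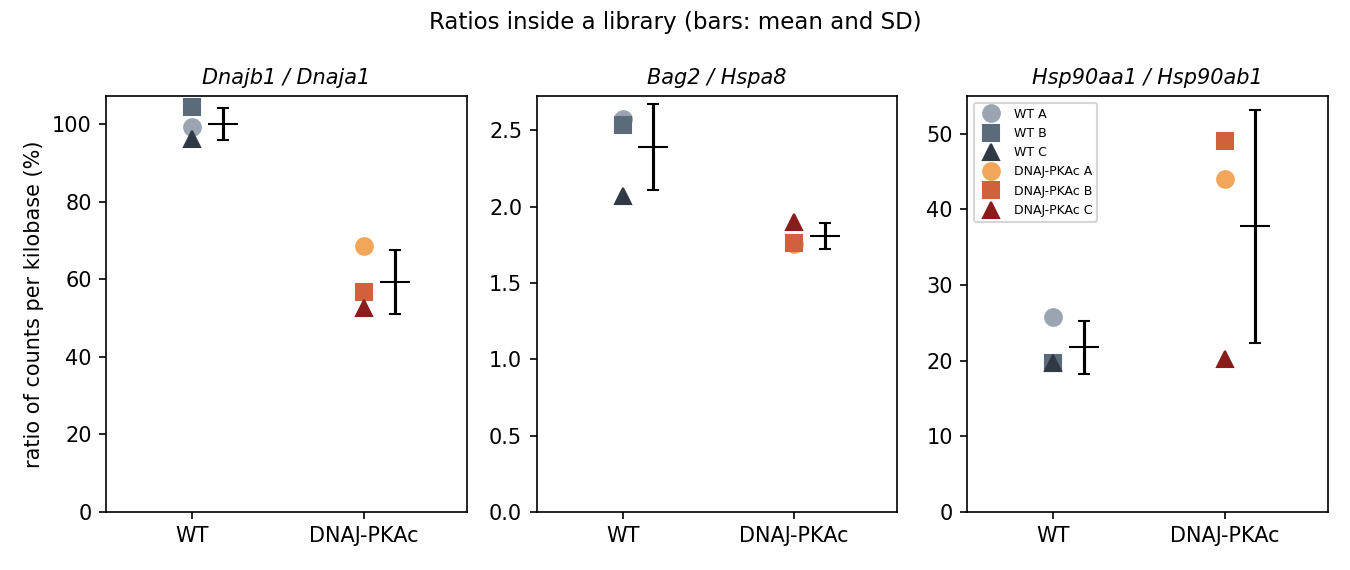
Ratios of counts per kilobase within each library, in percent, with the mean and SD of each line as black bars. The Dnajb1 to Dnaja1 and Bag2 to Hspa8 ratios do not overlap between the lines, and in the Hsp90aa1 to Hsp90ab1 ratio DNAJ-PKAc C lies at 20.2%, among the WT values.

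The exchange factors showed no shared direction. Hsph1, which encodes the HSP110 protein HSP105 (chr5:149616843-149636498), was at 96.1, 210 and 81.5 CPM for WT, against 178, 165 and 83.6 for DNAJ-PKAc. WT B was the highest of all 6 libraries, so the WT spread was wide. In WT B the nuclear RNA Malat1 took 1.04% of counts, against 0.107% to 0.464% elsewhere; the part of that library's RNA makeup in the Hsph1 value was not tested. The log2 difference was 0.13 (SE 0.43, 95% interval -0.87 to 1.14, edgeR adjusted p = 0.872). Leaving out both WT B, the highest Hsph1 library, and DNAJ-PKAc C, the lowest of its line, gave 0.90 (edgeR adjusted p = 5.2e-06). That removal widens the gap and narrows the spread by construction, and 23.9% of all genes were called higher in that fit. Bag2, whose protein inhibits the ubiquitin ligase CHIP and releases HSP70 clients (chr1:33745484-33757750), was at 64.3, 48.8 and 51.2 CPM for WT, against 57.6, 61.6 and 38.8 for DNAJ-PKAc. The groups overlapped, with DNAJ-PKAc C lowest (log2 -0.06, SE 0.22, 95% interval -0.58 to 0.46, edgeR adjusted p = 0.896). Against Hspa8 in the same library, Bag2 stood at 2.57%, 2.53% and 2.07% per kilobase for WT, against 1.75%, 1.76% and 1.90% for DNAJ-PKAc. The lines did not overlap in this ratio (log2 difference -0.40, exact permutation test, p = 0.1, the smallest possible; adjusted p = 0.3). Hsph1 against Hspa8 overlapped, with WT B at 5.34% and the other 5 libraries between 1.61% and 2.65% (log2 difference -0.14, exact permutation test, p = 1), and without WT B the difference was 0.40.

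Of the 9 tested members Hsp90aa1 had the widest gap between DNAJ-PKAc A and B on one side and C on the other. Hsp90aa1, the inducible cytosolic HSP90 (chr12:110691036-110696395), was at 1028, 820 and 786 CPM for WT, against 2545, 2789 and 790 for DNAJ-PKAc. DNAJ-PKAc C lay within the WT range while A and B were far above it. The fold over all libraries was 2.33 (log2 1.22, SE 0.44, 95% interval 0.18 to 2.26, edgeR adjusted p = 0.185). Hsp90ab1, the constitutive cytosolic HSP90 (chr17:45567778-45573261), was at 3056, 3193 and 3064 CPM for WT, against 4440, 4364 and 3008 for DNAJ-PKAc, with C just below the lowest WT library (log2 0.34, SE 0.20, 95% interval -0.12 to 0.81, edgeR adjusted p = 0.338). The inducible gene made 25.8%, 19.7% and 19.7% of the constitutive one per kilobase for WT, against 44.0%, 49.1% and 20.2% for DNAJ-PKAc. That ratio overlapped between the lines (log2 difference 0.71, exact permutation test, p = 0.2; adjusted p = 0.4). Of the 50-base stretches of Hsp90aa1 58.5% also occur in another gene, most of them in Gm12346, and of those of Hsp90ab1 4.49% do, so the Hsp90aa1 count is the less certain.

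Hsf1, the heat shock factor (chr15:76477362-76501155), was at 44.5, 46.4 and 48.9 CPM for WT, against 63.8, 55.7 and 49.5 for DNAJ-PKAc. The groups did not overlap, but DNAJ-PKAc C exceeded WT C by less than the spread within WT (SD 2.21 CPM). The log2 difference was 0.27 (SE 0.16, 95% interval -0.10 to 0.64, edgeR adjusted p = 0.337). The message of a factor that is regulated by its protein's assembly and modification does not report its activity.

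**Figure D3:**
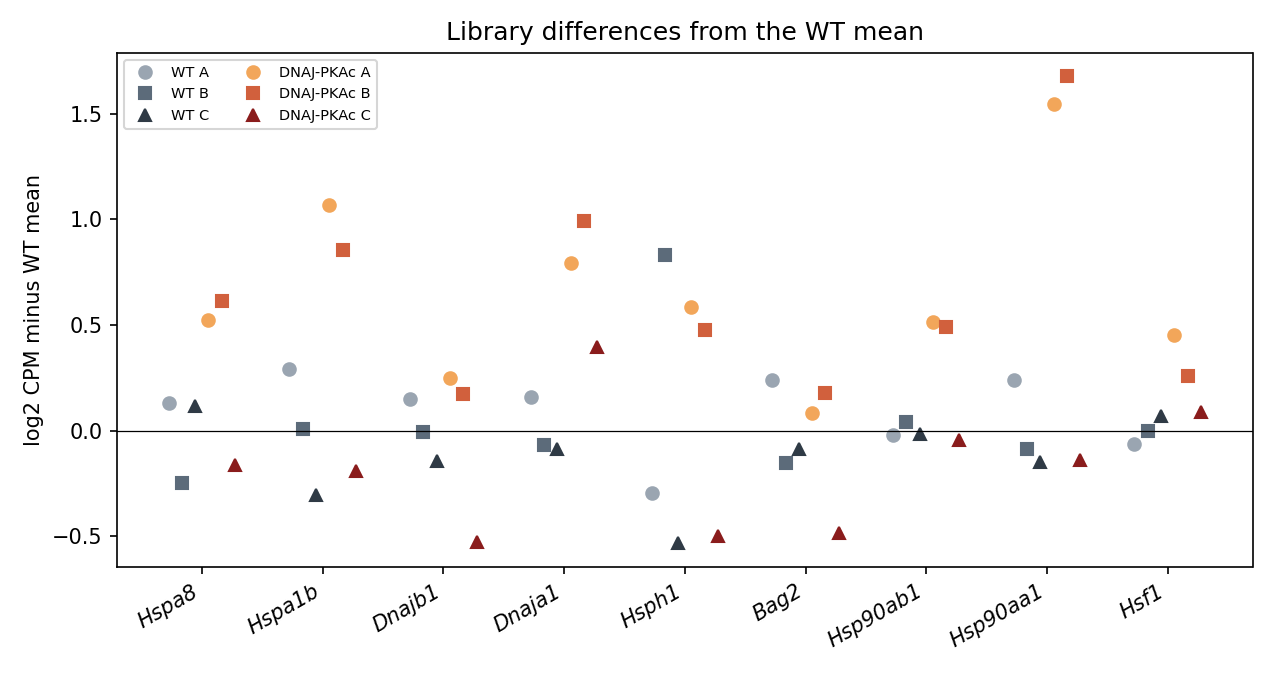
Difference of each library from the WT mean (log2 CPM, prior count 2) for each member, with the line at 0 marking the WT mean. Hsp90aa1 in DNAJ-PKAc A and B is highest, at 1.55 and 1.68, and WT B stands out for Hsph1, at 0.83.

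In order of level per kilobase in WT, Hspa8 (1237 ± 175 CPM per kilobase, SD, n = 3) and Hsp90ab1 (1232 ± 30.4) came first and did not differ beyond their spread. Hsp90aa1 (268 ± 39.9) and Hspa1b (88.4 ± 18.1) followed, each separate from its neighbours. Hsph1 (34.0 ± 18.6), Bag2 (29.5 ± 4.49), Hsf1 (22.2 ± 1.05), Dnajb1 (21.4 ± 2.16) and Dnaja1 (21.4 ± 2.08) were close to one another, and apart from Bag2 against the last 3 their order is within the spread. In DNAJ-PKAc Hspa8 (1581 ± 425) and Hsp90ab1 (1562 ± 320) again led, and Dnaja1 (35.9 ± 7.30) lay above Dnajb1 (21.4 ± 5.77). The 10 genes together took 0.824%, 0.693% and 0.781% of all counts of the WT libraries (95% Wilson intervals of 0.818% to 0.830%, 0.687% to 0.698% and 0.775% to 0.787%). In the DNAJ-PKAc libraries they took 1.25%, 1.27% and 0.678% (1.24% to 1.25%, 1.26% to 1.28% and 0.672% to 0.684%), so C held the smallest share of all 6 libraries. These intervals cover counting error only.

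Because DNAJ-PKAc C decided the calls, the fit was repeated without it. Then 4 members rose: Hsp90aa1 3.04-fold (edgeR adjusted p = 0.00168), Hspa1b 1.93-fold (0.0153), Dnaja1 1.86-fold (0.00704) and Hsp90ab1 1.42-fold (0.0424). Hspa8 was at log2 0.56 (0.0577), Hsf1 at 0.36 (0.0982), Hsph1 at 0.41 (0.49), Dnajb1 at 0.21 (0.311) and Bag2 at 0.12 (0.608). In that fit 14.3% of all genes were called higher, so the share of members called is to be read against a transcriptome in which many genes were. Without both WT B and DNAJ-PKAc C 7 members rose, all tested ones but Dnajb1 and Bag2, beside 23.9% of all genes. Dropping the libraries that stand apart narrows the spread within groups by construction. Leaving out any other 1 library called 0 members.

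**Figure D4:**
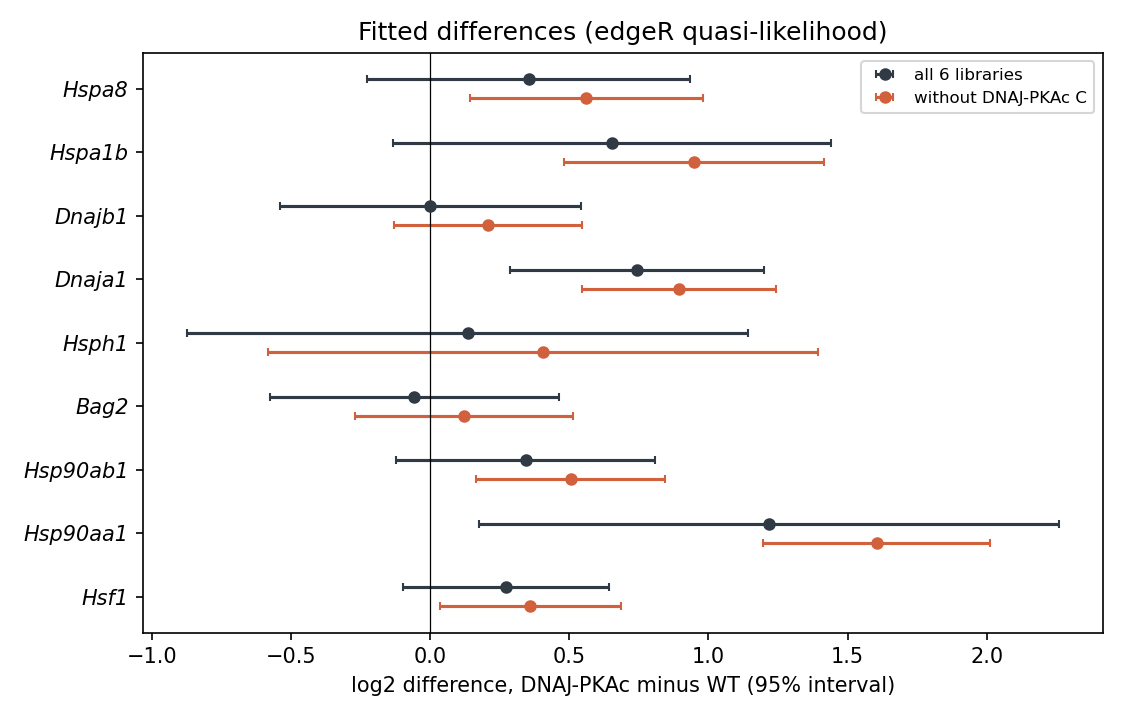
Fitted log2 differences with 95% intervals (edgeR), DNAJ-PKAc minus WT, with all 6 libraries in black and without DNAJ-PKAc C in orange. Without that library the Hsp90aa1 interval narrows from 0.18 to 2.26 to between 1.20 and 2.01, and those of Dnajb1, Hsph1 and Bag2 include 0 in both fits.

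Among the wider chaperone lists 0 genes were called by edgeR or by limma-voom over the 6 libraries, and DESeq2 called those named below. The counts that follow are to be read against all genes: 11.8% were higher and 9.72% lower at an unadjusted p under 0.05, and without DNAJ-PKAc C 14.3% were called higher and 11% lower. In the J-domain list 0 of 40 tested genes rose or fell (median log2 0.18, 27 above 0), and at an unadjusted p under 0.05 there were 6 higher and 5 lower. Next to Dnaja1, the smallest adjusted p was that of Dnajc9, which encodes a histone co-chaperone (log2 1.47, edgeR adjusted p = 0.123). DESeq2 called both of these higher and Dnajc3 and Gak, the gene of the auxilin-like clathrin uncoating partner of HSC70, lower. Without DNAJ-PKAc C 7 genes of this list rose, a share near the 14.3% of all genes, and 2, Gak and Hscb, fell, a share below the 11% of all genes. In the HSP70 and HSP110 family 0 of 12 were called by edgeR or DESeq2 (median 0.19, 0 at an unadjusted p under 0.05), with Hspa14 at 0.69 (edgeR adjusted p = 0.237) and the endoplasmic reticulum HSP110 gene Hyou1 at -0.41 (0.256). Without DNAJ-PKAc C 2 of the 12, Hspa14 and Hspa1b, rose, also near the 14.3% of all genes. Among the nucleotide exchange factors 0 of 14 were called by edgeR or DESeq2 (median 0.13, 1 at an unadjusted p under 0.05), led by Bag1 at 0.67 (0.127) and the mitochondrial factor gene Grpel1 at 0.40 (0.239). Bag1 and Hspbp1, 2 of the 14, rose without DNAJ-PKAc C, the same share as over all genes (14.3%).

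The list of HSP90 and its co-chaperones had 20 of 24 genes above 0 and 0 called by edgeR (median 0.31, 6 higher at an unadjusted p under 0.05, beside 11.8% of all genes). Ptges3, the p23 co-chaperone that closes HSP90 on its client, was at 215, 194 and 196 CPM for WT, against 391, 429 and 258 for DNAJ-PKAc (log2 0.83, edgeR adjusted p = 0.0936). Fkbp4, an immunophilin of steroid receptor complexes, was at 235, 223 and 225 CPM for WT, against 493, 455 and 286 for DNAJ-PKAc (log2 0.85, edgeR adjusted p = 0.0977). In both genes every DNAJ-PKAc library lay above every WT library, as in Dnaja1, and C was again the lowest of its group. DESeq2 called both, together with Stip1, whose protein HOP links HSP70 to HSP90, and Ahsa1, whose protein speeds HSP90 hydrolysis. Without DNAJ-PKAc C 11 of the 24 rose by edgeR and 0 fell, beside 14.3% and 11% of all genes.

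Genes known as targets of HSF1 under stress, 7 of which are tested members, had 0 of 24 called by edgeR, 9 higher at an unadjusted p under 0.05 (11.8% of all genes) and 22 above 0 (median 0.41). DESeq2 called 5, which were Dnaja1 and the 4 HSP90 co-chaperone genes just named. Against WT the list's median stood at 0.52 in DNAJ-PKAc A, at 0.58 in B and at the WT mean (0.00 to 2 decimals) in C. Without DNAJ-PKAc C 12 of the 24 rose (14.3% of all genes) and 0 fell. Among them Ahsa1, Cacybp, Chordc1, Fkbp4, Hsp90aa1, Hsp90ab1, Ptges3 and Stip1 were also counted in the HSP90 list, so the counts of both lists rest partly on the same genes. The chaperonin and prefoldin genes, which fold actin and tubulin, had 0 of 13 called by edgeR or DESeq2 and 13 above 0 (median 0.45, 4 higher at an unadjusted p under 0.05), led by Cct2 at 0.67 (edgeR adjusted p = 0.161) and Pfdn2 at 0.75 (0.172). Of these 13, 6 rose without DNAJ-PKAc C (14.3% of all genes). Of the heat shock factor and binding protein genes 0 of 4 were called by edgeR or DESeq2 (1 at an unadjusted p under 0.05), with Hsf2 at 0.49 (0.214) and Hsbp1 at 0.43 (0.301), and Hsf2 rose without DNAJ-PKAc C.

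In DNAJ-PKAc A and B the cell cycle list lay above WT, as did the HSP70, HSP90, chaperonin and HSF1 target lists. In DNAJ-PKAc C the cell cycle median was far below WT (-1.11) and the HSP70 and HSP110 median somewhat below it (-0.26), while the medians of the HSP90 (0.045), chaperonin (0.096) and HSF1 target lists lay within the WT range. The 33 cell cycle genes summed to 1351 to 1524 CPM in WT and to 4947, 5204 and 670 CPM for DNAJ-PKAc, with 0 called by edgeR. At an unadjusted p under 0.05 11 were higher (11.8% of all genes). DESeq2 called 5 higher (3.17% of all genes), among them Ccne1 and Cdk1. Without DNAJ-PKAc C 32 of the 33 rose (14.3% of all genes). The median of the J-domain list differed little among the DNAJ-PKAc libraries (0.13, 0.19 and 0.20), but single genes of it moved in both directions. Against the WT mean Dnajc9 stood at 1.75, 1.94 and 0.33 and Hscb at -1.24, -1.48 and 0.23 for DNAJ-PKAc. Dnaja3 was even, at 0.20, 0.15 and 0.18. The steady median therefore does not mean that these genes were alike in DNAJ-PKAc C and the other libraries of its line. Fibroblast markers went the other way: their medians against the WT mean were -1.13, -1.21 and 0.14 for DNAJ-PKAc, and they summed to 25232 to 26509 CPM in WT, against 16344, 16106 and 30003 for DNAJ-PKAc. Of their 7 tested genes 0 were called by edgeR or DESeq2 (0 at an unadjusted p under 0.05), and 6 fell without DNAJ-PKAc C (11% of all genes). The part of the cell cycle genes and of the fibroblast markers in the chaperone differences was not tested. In bulk RNA fewer cells of a type and less RNA per cell cannot be told apart.

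**Figure D5:**
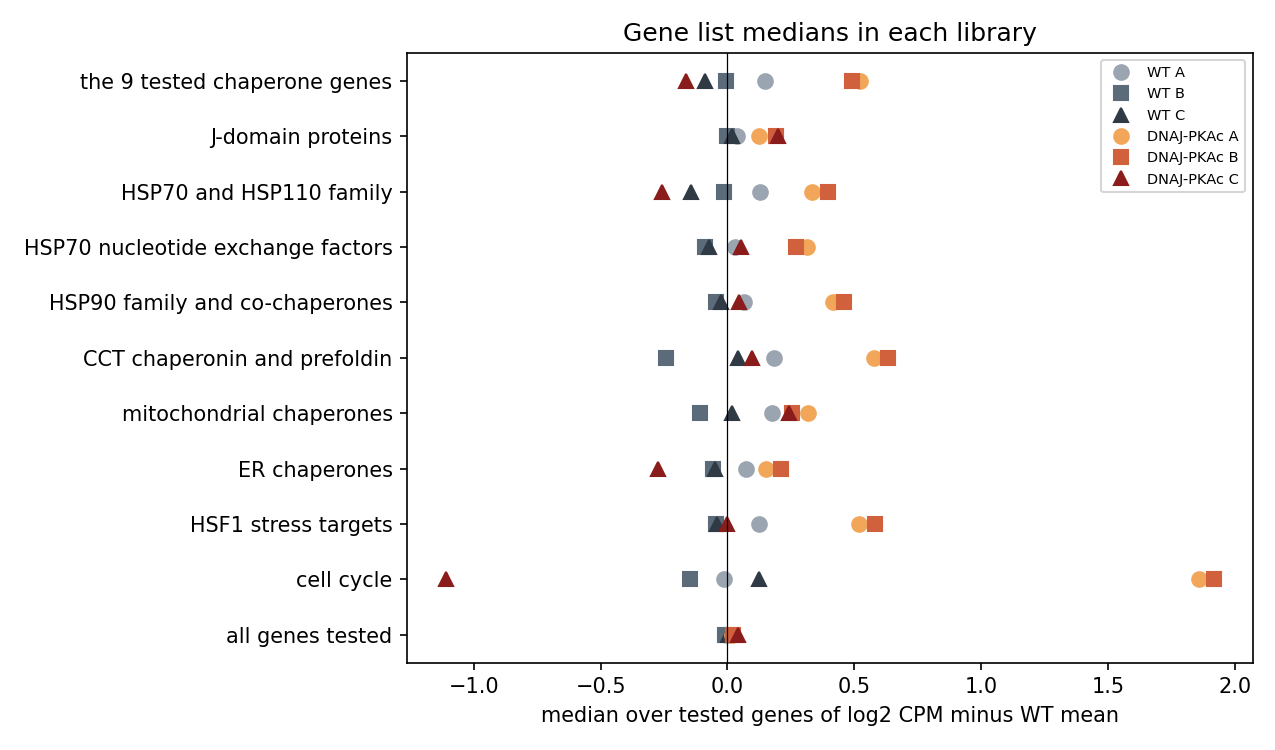
Median over the tested genes of each list of log2 CPM minus the WT mean, 1 point per library. The cell cycle list ranges from -1.11 in DNAJ-PKAc C to 1.92 in B, while for J-domain proteins the 3 DNAJ-PKAc medians lie between 0.13 and 0.20.

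The genes most like 3 of the members over the 6 libraries were named by the smallest root-mean-square difference of centred log2 CPM among 8833 genes of at least 10 CPM. For Hspa8 they were Trnt1 (0.0352), Cep57 (0.0377), Slmo2 (0.0469) and Sf3a3 (0.0518), where the median gene was at 0.41. For Dnajb1 they were Clic1 (0.0498), Nsmaf (0.0618), Ogg1 (0.0630) and Ifitm3 (0.0640), with a median gene at 0.39. For Hsf1 they were Fam73b (0.0330), 1700037H04Rik (0.0440), Zc3h18 (0.0550) and Rprd1a (0.0600), with a median gene at 0.32. None of the 12 is a chaperone of the lists. Between members the closest were Dnajb1 and Bag2 (0.10), then Hsp90ab1 and Hsf1 (0.12), and the farthest were Hsp90aa1 and Hsph1 (0.67).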

How the data were processed

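Total RNA of 6 libraries was sequenced with a kit that keeps strand, per the labels' protocols. The deposited values are expected counts for 24054 gene symbols, not scaled between libraries, per the file headers. The submitters' processing notes list STAR 2.5.2b, RSEM 1.3.0 and mm10. Neither the annotation nor the strand option of the counting is known here, which leaves overlapping genes and near-identical copies uncertain. After rounding, genes passing filterByExpr (minimum count 10) numbered 10975. Library factors were TMM, and genotype was the single term of the quasi-likelihood model (edgeR 4.0.16, R 4.3.3, 2-sided, Benjamini-Hochberg). The code was run on simulated counts in which no library stood apart. That run therefore says nothing of how the model handles a library such as DNAJ-PKAc C. Where no tool is named beside an adjusted p of a gene, it comes from this model. DESeq2 1.42.0 and limma 3.58.1 (voom) were alternatives, with other factors, filters and library sets. Differences are DNAJ-PKAc minus WT. At totals of 8095549 to 9969590, 3 counts equal 0.301 to 0.371 CPM. Ratios used counts per kilobase of the longest coding GENCODE M21 transcript, and positions and promoters are those of RefSeq on GRCm38.p6. Text names all 10 members and, from each other list without an edgeR call, the 2 genes of smallest adjusted p; further names (DESeq2 calls, calls without DNAJ-PKAc C) were chosen after their values were seen. Members, lists and alternatives were chosen with earlier results of these data known.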

Additional observations from a re-analysis of the deposited data

How the results depend on the processing

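Each of the 9 tested members was refitted under 16 alternatives. Dnaja1, Hspa8, Hspa1b, Hsp90aa1, Hsp90ab1 and Hsf1 kept a positive log2 difference in all of them, with Dnaja1 between 0.61 and 0.89 and Hsp90aa1 at 0.93 or above. Dnajb1, whose difference was 0.00, took the other sign with RLE factors (-0.040), upper-quartile factors (-0.068), DESeq2 (-0.040) and limma-voom (-0.033). When 1 library was left out Dnajb1 ran from -0.14 to 0.21, Hsph1 from -0.11 to 0.64 and Bag2 from -0.18 to 0.12, so all 3 took both signs. None of these values passed the threshold, and the cause was not tested. Members called higher numbered 1 with DESeq2, 0 to 4 when 1 library was left out, and 7 with both WT B and DNAJ-PKAc C removed. Over all genes edgeR called 150 higher and 235 lower. DESeq2 called 348 higher and 626 lower, and upper-quartile factors 114 and 295. A threshold of 0.01 gave 14 and 58. Dropping 1 library gave 19 to 1587 higher and 51 to 1221 lower, the upper ends being the fit that lacks DNAJ-PKAc C. Removing WT B as well gave 2633 and 2703. Of the 6 ratios 4 kept their sign in all alternatives run. The ratio of Hsph1 to Hspa8 ran from -0.46 to 0.40 when 1 library was left out, positive only without WT B, and was 0.50 with both WT B and DNAJ-PKAc C removed. The ratio of the J-domain pair to the HSP70 genes ran from -0.047 to 0.15, negative without WT C or DNAJ-PKAc C. No ratio could pass the threshold in any of these, so its side of it says nothing of stability.

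Whether the letters A, B and C pair the libraries is not stated. Deviations from the group means correlated at 0.21 for A, -0.20 for B and 0.028 for C, and between unlike letters at -0.28 to 0.30. With 3 libraries a line these deviations sum to 0 within a line, so the correlations cannot decide it. With the letter as a replicate block 0 members were called, Dnaja1 was at 0.73 (edgeR adjusted p = 0.163) and Dnajb1 at -0.033, and over all genes 56 were called higher and 143 lower. At this depth a gene under 3 counts, such as Hspa1a, gives no difference, and with 3 libraries a line the exact test of a ratio cannot go below 0.1.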

Other observations

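Chaperones of other compartments gave values of their own. In the endoplasmic reticulum list 0 of 20 genes were called by edgeR (median log2 0.06, 13 above 0, with 1 higher and 2 lower at an unadjusted p under 0.05), and DESeq2 called Dnajc3. Dnajc3, a J-domain protein that inhibits the kinase PERK, was at 186, 178 and 166 CPM for WT, against 130, 134 and 121 for DNAJ-PKAc, with no overlap (log2 -0.46, edgeR adjusted p = 0.13). DNAJ-PKAc C did not stand apart from A and B in this gene. Calr, the lectin chaperone calreticulin, was at log2 0.71 (0.185). In the mitochondrial list 0 of 14 were called by edgeR or DESeq2 (median 0.30, 1 at an unadjusted p under 0.05), with Dnajc15 at 0.66 (0.196) and Grpel1 at 0.40 (0.239).

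Of 10 small heat shock protein genes 4 were tested and 0 called by edgeR or DESeq2 (2 at an unadjusted p under 0.05), and 5 were at 0 in all 6 libraries. Hspb1, which encodes HSP27 and was singled out after its values were seen, was among those listed at 0 in every library. Cryab, alpha-B crystallin, was at 17.5, 15.8 and 12.4 CPM for WT, against 19.7, 19.4 and 43.6 for DNAJ-PKAc (log2 0.86, edgeR adjusted p = 0.225). Here DNAJ-PKAc C was the highest library, the reverse of its place in most cytosolic chaperone genes above. Hspb6 was at log2 0.76 (0.219).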
